A study of Mus musculus with 26 samples.

Results

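The genes described here are the transcription factors Atf4, Atf5 and Ddit3 (CHOP) of the integrated stress response and 7 genes known as targets of ATF4 or of its partners: Asns, Psat1, Slc7a11, Trib3, Chac1, Sesn2 and Ddit4. They were chosen by name, with earlier results of these data known, and each was found once among the 37991 genes of the count table, 37205 of which had a symbol, so that all 10 members are accounted for. Their mRNA was measured by RNA-seq in 26 libraries: 22 of whole retina and 4 of sorted rods.

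All animals were rd10 mice, which carry the Pde6b rd10 mutation (B6.CXB1-Pde6brd10/J) and lose rods in the weeks after eye opening; no wild-type retina was included, so every control was itself a degenerating retina. Mice were injected intraperitoneally from PN9 and retinas were taken at PN24, in 5 experiments that each had their own saline controls. The EZH2 inhibitor DZNep was compared in 2 libraries with 4 controls, the EZH2 inhibitor UNC1999 in 3 with 3, UNC0642, an inhibitor of the histone methyltransferases EHMT2 and EHMT1, in 2 with 2, and the HDAC inhibitor Romidepsin in 3 with 3. In the remaining experiment, rods were FACS-sorted from rd10 mice crossed to B6.Cg-Tg(Nrl-EGFP)1Asw/J, in which the Nrl promoter drives EGFP in rods, and 2 libraries from mice given the LSD1 inhibitor GSK2879552 were compared with 2 from saline-injected mice. Injections were daily per the labels, whereas the study's text describes DZNep as given every second day at a lower dose after the first days. UNC1999 was dissolved in a mixture with DMSO, PEG300 and Tween-80, so that this vehicle and the inhibitor cannot be told apart against saline. The study's text gives saline for the UNC1999 RNA-seq controls, while a figure legend names only diluent for the control retinas that were stained and counted. The label of the genotype ends in a number that climbs by 1 per library through the DZNep and UNC1999 experiments, as does the compound number in the last UNC1999 libraries; the titles were followed. The labels call the replicates biological but do not say whether a library came from 1 animal or from several pooled, and p-values measure the spread between these libraries only.

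In the integrated stress response, kinases that sense unfolded protein in the endoplasmic reticulum, lack of amino acids, double-stranded RNA or lack of haem phosphorylate the translation factor eIF2 alpha. General translation then falls while the mRNA of Atf4 is translated more, because of short reading frames in its leader. ATF4 protein, with partners such as C/EBP family members, raises genes for amino acid synthesis and uptake, and later Ddit3 and Trib3. The pathway has been studied in models of inherited photoreceptor degeneration, where misfolded or missing rod proteins strain the cell. Since the amount of ATF4 protein is set largely by translation, counts of its mRNA do not measure the activity of the pathway directly; the mRNAs of its targets are the readout used here.

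The DNA that ATF4 and a C/EBP protein bind together, the C/EBP-ATF response element, has the core TGATGNAA. The letters were searched on both strands in RefSeq promoter windows (GRCm38.p6), each 300 bases long from 250 before to 50 after the transcription start. They were present for 4 of the 10 members, Asns, Slc7a11, Trib3 and Chac1, and for 1219 of 27025 genes (4.511%). The stretches that hold them are shown because the members with and without these letters are compared below; each is given 5′ to 3′ on the strand of the gene with the core or its reverse complement in capitals, and was placed on NCBIM37 (mm9), the build of the counts, by an exact match.
Asns, chr6:7643214-7643243, minus strand: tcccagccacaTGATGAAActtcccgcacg
Slc7a11, chr3:50247558-50247617, minus strand: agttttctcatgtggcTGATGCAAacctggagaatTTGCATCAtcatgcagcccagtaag
Trib3, chr2:152169764-152169793, minus strand: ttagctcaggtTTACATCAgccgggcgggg
Chac1, chr2:119176759-119176818, plus strand: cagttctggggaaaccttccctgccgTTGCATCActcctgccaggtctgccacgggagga
The core of Asns lies at -23 to -16 relative to the start and that of Chac1, on the other strand, at -193 to -186. Slc7a11 holds a pair that face each other, the first on the gene's strand and the second on the opposite one, and the Trib3 match lies after the start, from base 15 to base 22. These positions are relative to the RefSeq starts, and the Ensembl models used for the counts differ: the Asns match lies inside the Ensembl gene, and the Trib3 match before its start. A match of letters is a description of the window, and its absence in the other 6 members says nothing about more distant elements.

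The whole retina libraries held 13732959 to 36354094 counted reads and the rod libraries 7289460 to 19864491. A count of 3, used as the floor below which a gene is not distinguished from 0, corresponded to between 0.0825 and 0.412 CPM (counts scaled to library size) depending on the library, and this floor covers counting error only. The lowest member value in any retina library was 3.14 CPM, for Chac1. The retina libraries expressed the rod, cone, Müller glia and inner neuron marker lists, and the sorted rods had 71225 to 104981 CPM of summed rod markers against 34.0 to 56.0 CPM of ganglion cell markers. Cone markers summed to 2342 to 5462 CPM in the sorted rods and to 1685 to 3313 CPM in the whole retinas, so this list was not lower in the sorted rods. The cone list includes Guca1a, which the paper counts among rod genes, so its sum is not cone RNA alone.

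DZNep was the only treatment under which members passed the test (edgeR quasi-likelihood test, adjusted p under 0.05 over all genes tested). Atf4, Ddit3, Trib3 and Ddit4 rose and Asns and Chac1 fell, so the set did not move as one. The 4 that rose stand beside 12.9% of the 16477 genes tested that rose, and the 2 that fell beside 9.72% that fell. None of these had an absolute log2 fold change above 1, while 1.71% of the 16477 genes tested were called with one above 1. Without DZNep replicate 1, the deepest library, 3 members passed higher (Atf4, Ddit4 and Slc7a11) and 0 lower, and of all genes 4.71% and 1.67% did. The median log2 fold change of the 10 members was 0.19, with 6 above 0, and that of all genes tested -0.00057.

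No member passed under UNC1999, UNC0642 or Romidepsin, or in the sorted rods. In UNC1999, 0.501% of 15775 genes were called higher and 0.101% lower (0.602% in all), and in Romidepsin 0.573% and 0.174% of 16049 (0.748% in all); in UNC0642 and in the sorted rods 0% of 16321 and 14478 genes were called in either direction. At an unadjusted p under 0.05, 5 members were counted in UNC1999 (23.6% of all genes), 3 in UNC0642 (14.7%), 6 in Romidepsin (19.4%) and 2 of the 9 tested in sorted rods (4.91%), beside 7 in DZNep (36.5%). The median of the members was -0.12 in UNC1999, 0.28 in UNC0642, 0.05 in Romidepsin and -0.40 in sorted rods, where the medians of all genes tested lay within 0.01 of 0.

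In DZNep the same 6 members were called, in the same directions, by the likelihood ratio test of edgeR (21.5% of genes called in either direction, 22.7% by the quasi-likelihood test) and by DESeq2 (19.6%). In the other retina experiments these tests called members where the quasi-likelihood test did not. The likelihood ratio test, which the study used, called Atf4 higher and Asns, Psat1 and Chac1 lower in UNC1999 (10.4% of genes called in either direction), Atf4 higher in UNC0642 (0.888%), and Atf4 higher and Psat1 lower in Romidepsin (7.38%). DESeq2 called Atf4 higher in each of these 3 comparisons, Asns and Psat1 lower in UNC1999 (9.27%) and in Romidepsin (6.69%), and nothing else in UNC0642 (0.931%). The DESeq2 shares are of all genes entered, including those to which it gave no adjusted p. These were 7278 of 16321 genes in UNC0642, 1599 of 16477 in DZNep, 614 of 15775 in UNC1999 and 314 of 16049 in Romidepsin. None of the 10 was called in the sorted rods by either test (0.49% and 0.297% of genes).

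One fit over all retina libraries, whose shared spread is estimated from more libraries, called Atf4 higher in all 4 experiments, Asns, Psat1 and Chac1 lower in UNC1999 and Romidepsin, Ddit3 higher in Romidepsin, and Chac1 lower and Ddit4 higher in DZNep. It called 7.72%, 8.37%, 0.0289% and 17.3% of all genes in DZNep, UNC1999, UNC0642 and Romidepsin. With no filter on low counts Atf4 was called higher in UNC1999 (4.52% of genes called), UNC0642 (4.55%) and Romidepsin (2.86%), with Asns lower in the first and Atf5 and Ddit3 higher in the second.

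Every treated library lay above every control for 4 members in DZNep (24.4% of all genes), 2 in UNC1999 (13.9%), 4 in UNC0642 (26.9%), 3 in Romidepsin (13.5%) and 0 in sorted rods (15.9%). Every treated library lay below every control for 3 members in DZNep (21.5%), 2 in UNC1999 (13.5%), 0 in UNC0642 (25.2%), 3 in Romidepsin (12.5%) and 7 in sorted rods (17.3%). In sorted rods 33.2% of genes were apart in either direction.

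Without UNC1999 control replicate 3 the quasi-likelihood test itself called Atf4 higher (adjusted p = 0.0182) and Asns and Psat1 lower (adjusted p = 0.00913 and 0.00909), in a fit that called 8.31% of all genes higher and 8.5% lower.

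**Figure D1:**
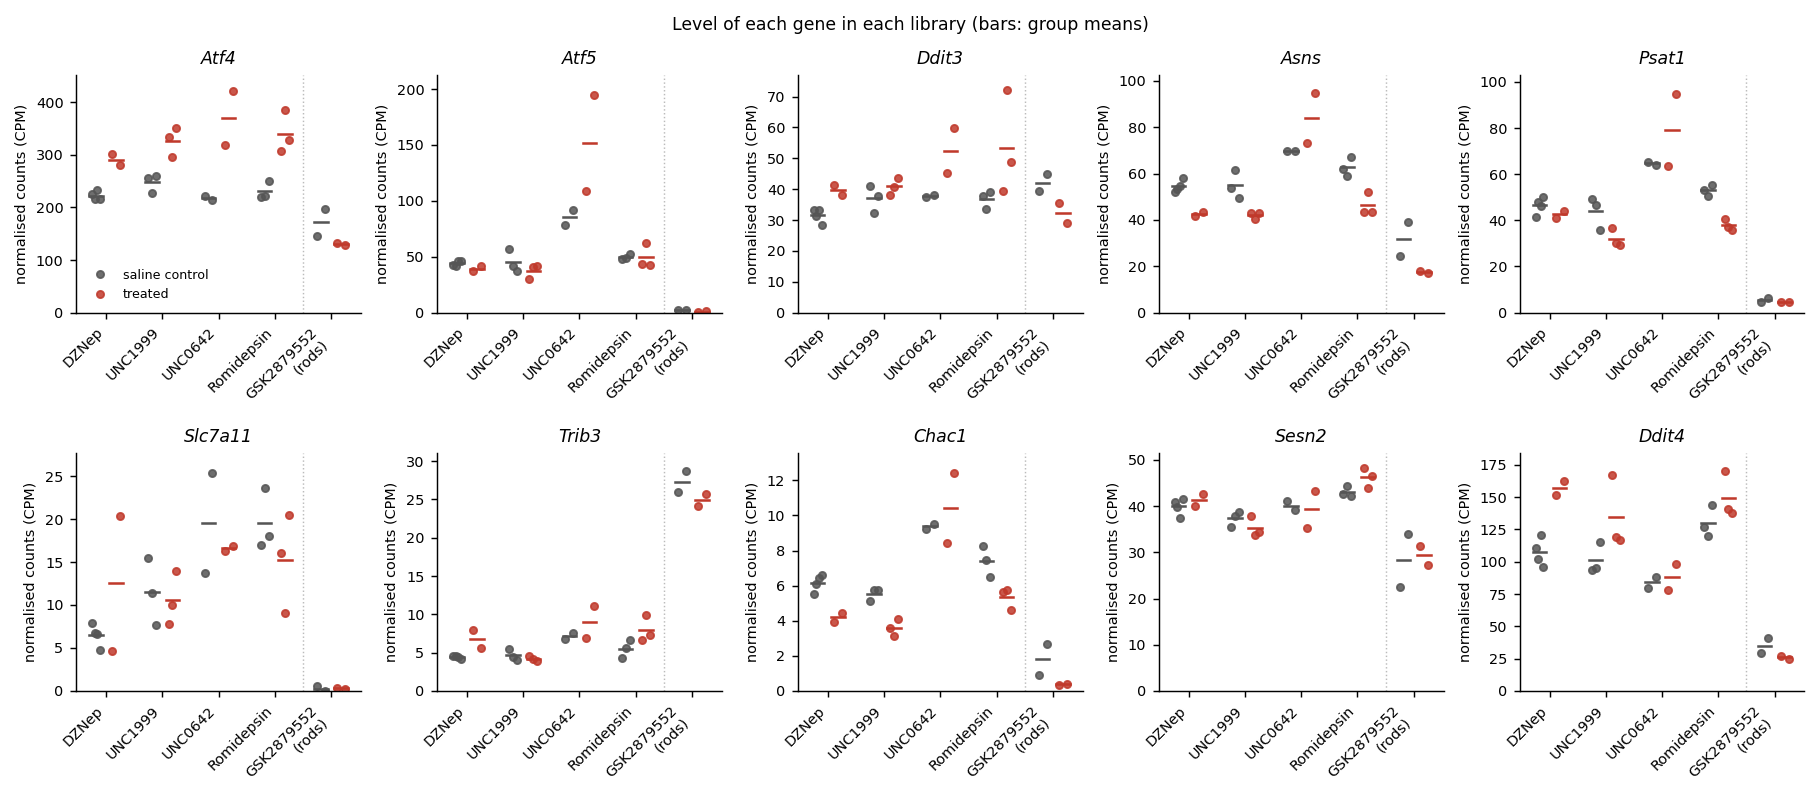
Normalised counts (CPM, linear axes from 0) of the 10 genes in every library, with saline controls in grey, treated libraries in red and group means as bars; the dotted line parts the sorted rods, a different preparation, from the whole retinas. Treated retinas lie above their controls for Atf4 in all 4 retina experiments, whereas Chac1 and Asns lie below them in all but UNC0642. The share of all genes with such a repeated order was not computed.

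Among the transcription factors, Atf4 (chr15:80085614-80087970) had the highest level and its treated retinas lay above their controls in every retina experiment. Controls of the DZNep experiment had 226, 216, 233 and 216 CPM and DZNep retinas 301 and 280. Controls of the UNC1999 experiment had 256, 227 and 261 CPM and UNC1999 retinas 335, 296 and 351. For UNC0642 the controls had 222 and 215 CPM and the treated retinas 320 and 421. That treated library of 421 CPM was the highest of the whole series, and it was also the shallowest retina library, with 13732959 reads. For Romidepsin the controls had 219, 222 and 250 CPM and the treated retinas 308, 386 and 327.

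The groups did not overlap for Atf4 in any of these experiments, beside 45.9%, 27.4%, 52.1% and 26% of all genes tested in DZNep, UNC1999, UNC0642 and Romidepsin. The share of all genes that lay above their controls in every 1 of these experiments was not computed. The log2 fold change was 0.39 ± 0.05 (SE) in DZNep with an adjusted p of 0.0017, 0.40 ± 0.09 in UNC1999 with 0.0589, 0.76 ± 0.13 in UNC0642 with 0.299 and 0.56 ± 0.13 in Romidepsin with 0.071. The DZNep call was kept without each library in turn and under every alternative tried except the fold threshold, with adjusted p-values up to 0.0307. In whole retina fewer cells of a type and less mRNA per cell cannot be told apart. All 18 rod markers rose in DZNep, where their summed level was 22664 to 37418 CPM in controls and 67847 to 70278 CPM in treated retinas. In UNC1999 the sum was 60237 to 81788 CPM against 24101 to 44993 CPM in controls. The treated and control sums lay closer in UNC0642 (11917 to 17479 against 11437 to 11751 CPM). They overlapped in Romidepsin (30197 to 40081 against 19510 to 31086 CPM). No rod marker passed in UNC1999, UNC0642 or Romidepsin. The part of rod marker mRNA in the Atf4 values was not tested. In sorted rods the controls had 146 and 197 CPM of Atf4 and the GSK2879552 libraries 132 and 128.

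Ddit3 (chr10:126727830-126733344), which encodes CHOP, a factor that favours cell death when stress persists, rose in DZNep. Its controls had 33.2, 31.2, 33.2 and 28.4 CPM and the DZNep retinas 41.3 and 38.2, a log2 fold change of 0.34 ± 0.08 with an adjusted p of 0.0141. The call did not hold without DZNep replicate 1, the deepest library, where the adjusted p was 0.141, nor in 1 fit over all 22 retina libraries, where it was 0.233. In Romidepsin the controls had 38.0, 33.6 and 39.2 CPM and the treated retinas 39.5, 72.0 and 48.7. Replicate 2 thus had the highest value, with the lowest treated library barely above the controls, and the log2 fold change of 0.53 ± 0.21 did not pass (adjusted p = 0.209). In UNC0642, Ddit3 had 37.6 and 38.3 CPM in controls and 45.4 and 59.7 in treated retinas (log2 fold change 0.47 ± 0.13, adjusted p = 0.299), and in UNC1999 the groups overlapped. Up to 68 of its exonic bases are shared with genes on the opposite strand, among them Mars, and the sources used here do not say whether the counting used strand.

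Atf5 (chr7:52067627-52072028), which encodes a factor linked to the mitochondrial unfolded protein response, went its own way. In UNC0642 its controls had 78.7 and 92.1 CPM and the treated retinas 109 and 195. Both treated libraries lay above the controls, but they differed from each other by more than treated and control means did, and the log2 fold change of 0.83 ± 0.25 did not pass (adjusted p = 0.304); it was 0.35 without UNC0642 replicate 2 and 1.19 without replicate 1. The controls of that experiment also lay above the 37.0 to 56.6 CPM of the controls of the other retina experiments, as did their summed gliosis markers (3035 to 3730 CPM against 623 to 2092). In DZNep the 2 treated retinas had 37.1 and 41.3 CPM, below the 41.6 to 46.1 CPM of the controls, with an adjusted p of 0.101, and in UNC1999 and Romidepsin the groups overlapped.

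**Figure D2:**
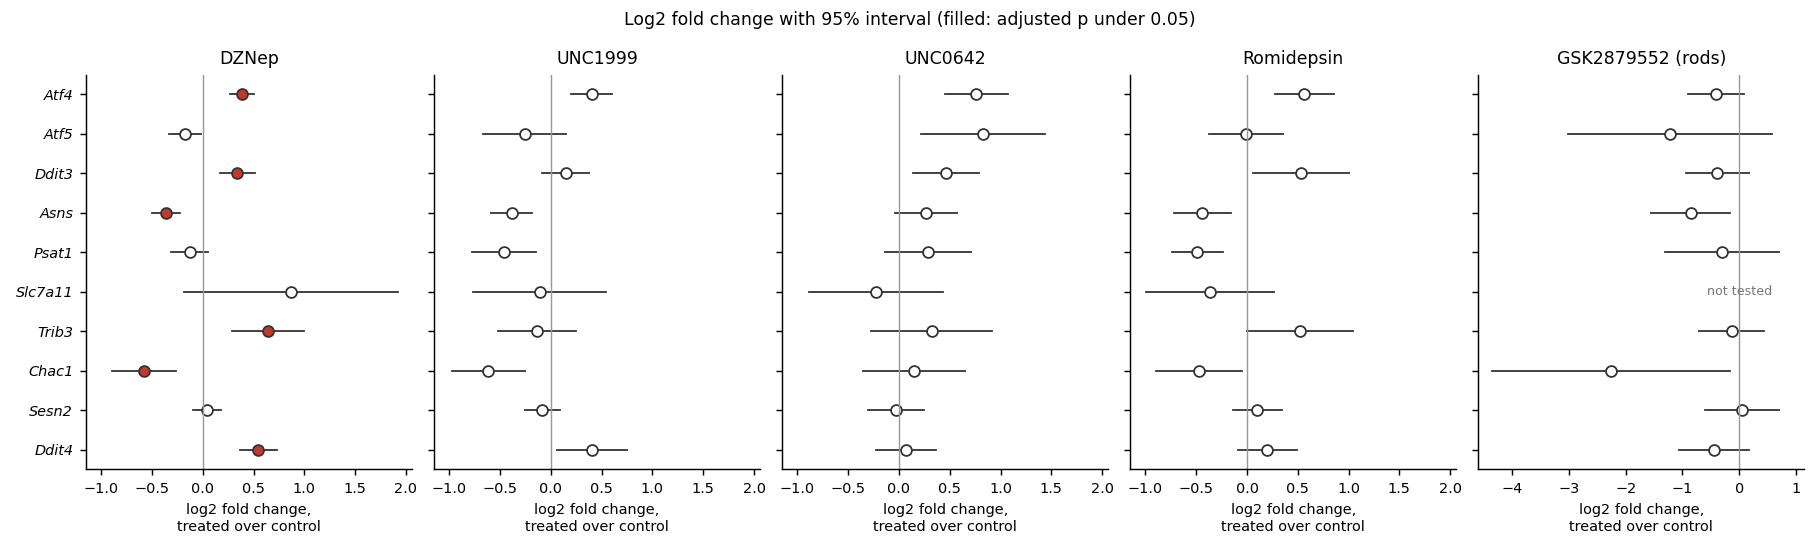
Log2 fold change of treated over control libraries with its 95% interval for each gene and comparison (filled points have an adjusted p under 0.05, and the rod panel has a wider axis). Filled points appear only in the DZNep panel, with Atf4, Ddit3, Trib3 and Ddit4 to the right of 0 and Asns and Chac1 to the left.

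Of the amino acid genes, Asns (chr6:7625169-7643254), asparagine synthetase, was lower in treated than in control retinas in 3 experiments and higher in the other. Its DZNep controls had 51.9, 53.2, 54.5 and 58.1 CPM and the DZNep retinas 41.6 and 43.4, so it fell by 0.36 ± 0.06 on the log2 scale (adjusted p = 0.00444). Both DZNep retinas lay below every control. Without DZNep replicate 1 the log2 fold change was -0.33 with an adjusted p of 0.0602, and in the fit over all retina libraries the adjusted p was 0.0543. In UNC1999 the controls had 54.0, 61.4 and 49.5 CPM and the treated retinas 42.8, 40.6 and 43.0 (log2 fold change -0.39 ± 0.09, adjusted p = 0.0617). In Romidepsin the controls had 62.0, 58.8 and 67.3 CPM and the treated retinas 43.4, 51.9 and 43.5 (log2 fold change -0.44 ± 0.12, adjusted p = 0.104). All 8 treated retinas of these 3 experiments thus lay below their own controls. Taken singly, 21.5%, 13.5% and 12.5% of all genes did so in DZNep, UNC1999 and Romidepsin. The share of all genes that did so in all 3 was not computed. In UNC0642 the controls had 69.5 and 69.6 CPM and the treated retinas 73.0 and 94.9 (log2 fold change 0.27 ± 0.13, adjusted p = 0.365).

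Psat1 (chr19:15979168-16021827), which makes phosphoserine on the way to serine, followed the order of Asns in 2 of these experiments. In Romidepsin it had 53.1, 50.4 and 55.5 CPM in controls and 40.4, 37.0 and 35.9 in treated retinas, apart from each other, with a log2 fold change of -0.49 ± 0.11 and an adjusted p of 0.071. In UNC1999 the controls had 49.2, 46.9 and 35.8 CPM and the treated retinas 36.6, 30.1 and 29.2. There control replicate 3 lay inside the treated range; with it the adjusted p was 0.0993 and without it 0.00909, at log2 fold changes of -0.46 and -0.59. That control also stood apart in its summed rod markers (44993 CPM, nearest to the treated retinas), and what it contributed to the Psat1 values was not tested. In DZNep and UNC0642 the groups overlapped.

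Markers of Müller glia, the cells that supply the retina with serine and glutamine, were read beside these genes. In DZNep 10 of 13 Müller glia markers fell (9.72% of all genes did), and their summed level was 7482 to 8392 CPM against 10614 to 10872 in controls. The sums were 7510 to 8693 against 10714 to 12286 CPM in Romidepsin, 5460 to 7543 against 6612 to 8089 in UNC1999 and 6855 to 7860 against 9282 to 9927 in UNC0642. The treated sums lay below the controls in DZNep and Romidepsin, where Asns was also lower, and in UNC0642, where it was not, and they overlapped in UNC1999; the part of glial share in these genes was not tested.

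Slc7a11 (chr3:50168858-50247535), the cystine transporter xCT, varied most. In DZNep the controls had 7.96, 6.71, 6.59 and 4.74 CPM, while the treated retinas had 4.67 and 20.4. The difference of 0.87 ± 0.47 on the log2 scale (adjusted p = 0.211) rested on DZNep replicate 2: without it the log2 fold change was -0.47, and without replicate 1 it was 1.65 with an adjusted p of 0.0161. Replicate 2 had 449 CPM of summed pigment epithelium markers and 149 CPM of lens markers, against 113 to 264 CPM and 48.8 to 78.3 CPM in the other libraries of that experiment, and the part of such tissue in the Slc7a11 value was not tested. In the other retina experiments groups overlapped, with 7.71 to 25.4 CPM in controls and 7.76 to 20.5 CPM in treated libraries. Parts of this gene have 8 near-identical matches elsewhere in the genome, the longest of 375 bases at 96.0% identity, so its counts are uncertain to that degree; the other members had none over 100 bases at 95% identity.

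Of the genes that restrain the response or slow growth, Ddit4 (chr10:59412423-59414518), which encodes REDD1, an inhibitor of mTORC1, rose in DZNep. The controls had 110, 102, 121 and 96.3 CPM and the DZNep retinas 151 and 163, a log2 fold change of 0.55 ± 0.08 (adjusted p = 0.00247). In UNC1999 the controls had 93.7, 95 and 116 CPM and the treated retinas 167, 119 and 117. All treated libraries were above the controls there, 2 of them by little, and the log2 fold change of 0.40 ± 0.15 did not pass (adjusted p = 0.158) and was 0.22 without UNC1999 replicate 1. Groups overlapped in UNC0642 and Romidepsin. Ddit4 is also a known target of glucocorticoid and hypoxia signalling, whose lists are given below.

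Trib3 (chr2:152163158-152169768), a pseudokinase that binds ATF4 and CHOP and limits their activity, also rose in DZNep. The controls had 4.60, 4.55, 4.47 and 4.16 CPM and the DZNep retinas 7.99 and 5.65, a log2 fold change of 0.64 ± 0.16 (adjusted p = 0.0192). The call was lost without DZNep replicate 1 (0.35, adjusted p = 0.274) and in the fit over all retina libraries (adjusted p = 0.0619). In Romidepsin the controls had 4.31, 5.55 and 6.64 CPM and the treated retinas 6.67, 9.86 and 7.27 (log2 fold change 0.52 ± 0.23, adjusted p = 0.258). The lowest treated library and the highest control were nearly equal. In UNC1999 the values overlapped and the log2 fold change was -0.14 ± 0.17.

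Chac1 (chr2:119176965-119180117), which breaks down glutathione and is among the strongest ATF4 targets in stressed cells, fell in DZNep. The controls had 5.55, 6.07, 6.45 and 6.61 CPM and the DZNep retinas 3.91 and 4.46, so it fell by 0.58 ± 0.14 on the log2 scale (adjusted p = 0.0195). Without DZNep replicate 1 the adjusted p was 0.178, and without control replicate 3 it was 0.0516. In UNC1999 the controls had 5.12, 5.74 and 5.76 CPM and the treated retinas 3.60, 3.14 and 4.10 (log2 fold change -0.62 ± 0.16, adjusted p = 0.0761). In Romidepsin the controls had 8.28, 7.47 and 6.48 CPM and the treated retinas 5.65, 5.73 and 4.61 (log2 fold change -0.47 ± 0.19, adjusted p = 0.211). Treated retinas were below every control in all 3 of these experiments, and in UNC0642 they lay on either side (8.42 and 12.4 CPM against 9.24 and 9.52). The share of all genes that lay below in all 3 was not computed.

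Sesn2 (chr4:132047947-132066416), a leucine sensor that restrains mTORC1, differed least. Its values ran from 37.5 to 41.5 CPM in the DZNep controls and were 40.0 and 42.6 CPM in DZNep, with a log2 fold change of 0.04 ± 0.06 and a 95% interval from -0.10 to 0.18. The groups overlapped in all 5 experiments, and its log2 fold changes lay between -0.08 and 0.10. The intervals were wider outside DZNep: -0.25 to 0.09 in UNC1999, -0.31 to 0.25 in UNC0642, -0.14 to 0.34 in Romidepsin and -0.60 to 0.70 in sorted rods.

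The members that hold the TGATGNAA core did not share a direction in DZNep: Trib3 rose, Asns and Chac1 fell and Slc7a11 did not pass. Of the 6 without it, Atf4, Ddit3 and Ddit4 rose.

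UNC0642 stood apart from the other retina treatments in the signs of Asns, Psat1, Chac1 and Atf5, but those of Psat1 and Chac1 turned without UNC0642 replicate 2 (-0.030 and -0.16) and that of Atf5 in Romidepsin, at -0.01, crossed 0 under some alternatives. The difference between treatments was tested directly over the 22 retina libraries for the 6 pairs of treatments, 60 tests of the members in all. No difference passed, beside 0.00579% of 17274 genes called for DZNep less UNC1999, 0.0232% for DZNep less UNC0642, 0.289% for DZNep less Romidepsin, 0.0116% for UNC1999 less UNC0642, 5.11% for UNC1999 less Romidepsin and 0.0174% for UNC0642 less Romidepsin. At an unadjusted p under 0.05, 17 of the 60 were counted. These were 5 in DZNep less UNC0642 (2262 of 17274 genes), 5 in UNC1999 less UNC0642 (2080) and 4 in UNC0642 less Romidepsin (2178). The other pairs had 1 each: DZNep less UNC1999 (1633 genes), DZNep less Romidepsin (2383) and UNC1999 less Romidepsin (3770). The lowest adjusted p was 0.0831, for Asns, whose log2 fold change was higher in UNC0642 than in Romidepsin by 0.70 (95% interval 0.37 to 1.03). For the same pair Psat1 differed by 0.77 (0.34 to 1.20, adjusted p = 0.126) and Atf5 by 0.83 (0.20 to 1.46, adjusted p = 0.255). Asns in UNC1999 less that in UNC0642 was -0.65 (-0.99 to -0.32, adjusted p = 0.184), and in DZNep less UNC0642 -0.62 (-0.97 to -0.28, adjusted p = 0.156). Without Romidepsin replicate 1 or 2 the Asns difference from Romidepsin passed (adjusted p = 0.048 and 0.0282, with 2.12% and 1.85% of all genes called), and without UNC1999 control replicate 3 the differences of Asns, Psat1 and Atf5 between UNC1999 and UNC0642 passed (adjusted p = 0.0291, 0.0281 and 0.0486, with 2.08% of all genes called). Without UNC0642 replicate 2 the differences from Romidepsin were smaller, at 0.52 for Asns, 0.47 for Psat1 and 0.37 for Atf5 (adjusted p = 0.299, 0.446 and 0.735). In UNC1999 less UNC0642 they were then -0.45 for Asns, -0.42 for Psat1 and -0.60 for Atf5 (adjusted p = 0.492, 0.567 and 0.573). DESeq2 called Asns in all 3 pairs with UNC0642 (1.01% of all genes called against DZNep, 0.492% against UNC1999 and 1.36% against Romidepsin) and Psat1 against Romidepsin. In these pairs it gave no adjusted p to 4022, 2349 and 2014 of the 17274 genes, which the shares include. The likelihood ratio test called Asns against UNC1999 (0.423%) and Asns and Psat1 against Romidepsin (0.99%).

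The 2 EZH2 inhibitors, DZNep, an adenosine analogue, and UNC1999, a pyridone, were given on different schedules and in different vehicles, so their values are set side by side with the interval of the difference. Atf4 in DZNep less that in UNC1999 was -0.01 (-0.32 to 0.30), Asns 0.03 (-0.28 to 0.34) and Chac1 0.05 (-0.43 to 0.53). These intervals leave room for differences of about the size of the effects themselves. The lowest p was that of Trib3, which differed by 0.78 (0.17 to 1.39, unadjusted p = 0.0154, adjusted p = 0.41), and Slc7a11 differed by 1.00 (-0.24 to 2.24).

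In UNC0642, replicate 2 had the higher value of the treated pair for all 10 members, so the values of this experiment were read with and without it. With it, 8 of 10 log2 fold changes were above 0. Without it Psat1 (-0.03), Trib3 (-0.05), Chac1 (-0.16) and Ddit4 (-0.11) turned negative, while Atf4 (0.55), Atf5 (0.35), Ddit3 (0.26) and Asns (0.07) stayed above 0. Replicate 2 had 17479 CPM of summed rod markers against 11917 in replicate 1, and 592 against 970 CPM of microglia and macrophage markers; the part of these shares in the values was not tested.

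The other genes of the pathway and of neighbouring responses were followed in 12 lists. Their DZNep calls are those of the main test and were not read with a library left out. The fit over all retina libraries called 7.72% of all genes in DZNep, and the main test 22.7%. Upstream of ATF4, of 16 genes for the eIF2 kinases, the eIF2 phosphatase and eIF2B, 1 rose and 3 fell in DZNep, beside 12.9% and 9.72% of all genes. Eif2ak3 (PERK), the kinase of the endoplasmic reticulum, rose by 0.23 ± 0.07 on the log2 scale (adjusted p = 0.037), from 50.9 to 59.4 CPM. Eif2ak1 (HRI, the haem-regulated kinase, -0.27 ± 0.06), Eif2ak4 (GCN2, the amino acid sensor, -0.21 ± 0.06) and Impact, an inhibitor of GCN2 (-0.23 ± 0.06), fell, with adjusted p-values of 0.0145, 0.0284 and 0.0355.

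Of 19 further amino acid and one-carbon genes, 3 rose and 2 fell in DZNep, shares near those of all genes (12.9% and 9.72%), with a median log2 fold change of -0.06. The amino acid transporters Slc38a2 (0.27 ± 0.05, adjusted p = 0.00917) and Slc7a5 (0.22 ± 0.06, adjusted p = 0.0232) and Phgdh, which begins serine synthesis (0.59 ± 0.13, adjusted p = 0.0135), rose, while the aminotransferase gene Gpt2 (-0.42 ± 0.10) and the glycine transporter gene Slc6a9 (-0.25 ± 0.07) fell. Slc6a9 is also on the amacrine marker list, of which 4 of 10 fell. Phgdh went from 6.02 to 9.18 CPM where Psat1, the next enzyme, did not pass.

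Of 13 other transcription factors and targets 2 rose and 3 fell in DZNep, and the median was -0.16. The largest rise was that of Vldlr, a lipoprotein receptor, by 0.68 ± 0.06 from 262 to 420 CPM (adjusted p = 0.000483), and Ero1l, an oxidase of the endoplasmic reticulum, rose by 0.30 ± 0.05 (adjusted p = 0.0047). Eif4ebp1, a translation repressor known as an ATF4 target, fell by 1.05 ± 0.23 from 3.49 to 1.76 CPM (adjusted p = 0.0131). The stress factor gene Nupr1 (-0.57 ± 0.14, adjusted p = 0.021) and Jdp2 (-0.43 ± 0.10, adjusted p = 0.0157) fell as well.

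The list of chaperones, degradation genes and stress regulators of the endoplasmic reticulum was grouped here as the ATF6 and XBP1 arms. It had 8 of 23 genes that rose in DZNep and none that fell, beside 12.9% and 9.72% of all genes. Its median log2 fold change was 0.16. The chaperone gene Hspa5 (BiP) rose from 298 to 388 CPM (0.38 ± 0.05, adjusted p = 0.00201), Creld2 from 20.6 to 26.8 CPM (0.37 ± 0.07, adjusted p = 0.00689) and Xbp1 itself from 76.1 to 91.8 CPM (0.27 ± 0.05, adjusted p = 0.00694). In UNC1999, where 0 of these genes passed, the median was -0.07 and 8 were above 0, and in Romidepsin it was -0.14 with 5 above 0. The difference between these experiments was not tested for the list.

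Of 20 cytosolic aminoacyl-tRNA synthetase genes, several of which ATF4 induces, Farsa (0.28 ± 0.05, adjusted p = 0.00707) and Mars (0.19 ± 0.05, adjusted p = 0.0326) rose in DZNep, with a list median of -0.01. Mars overlaps Ddit3 on the opposite strand. In UNC0642 all 20 had a log2 fold change above 0, from 0.04 to 0.39 with a median of 0.19, and 9 had an unadjusted p under 0.05, but none passed (lowest adjusted p 0.299; 14.7% of all genes had an unadjusted p under 0.05). The amino acid list likewise had 16 of 19 genes above 0 in UNC0642 (median 0.13) against 7 of 19 in DZNep and 5 of 19 in UNC1999. None of the genes of either list passed in UNC1999, UNC0642 or Romidepsin. Neither list was read without UNC0642 replicate 2, which had the higher value of the treated pair for all 10 members.

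In the remaining lists, read beside the same 12.9% and 9.72% of all genes, the DZNep calls went mostly both ways. Of mitochondrial chaperones and proteases Tomm20 rose (0.20 ± 0.05) and Hspe1 fell (-0.22 ± 0.06) among 10 genes. Of 12 NRF2 targets Me1 rose (0.40 ± 0.06) and Txnrd1, which NRF2 induces, fell (-0.18 ± 0.05), and of 11 genes of glutathione synthesis and breakdown Gss rose (0.33 ± 0.09) and Ggt1 fell (-0.71 ± 0.21). Ggt1 was also the only list gene to pass in another experiment, and in Romidepsin it fell by 1.42 ± 0.25 on the log2 scale (adjusted p = 0.0492), from 6.50 to 2.44 CPM.

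The lists for other inducers of Ddit4 and Sesn2 had calls in both directions too, apart from the hypoxia list. Of 12 glucocorticoid receptor targets Sgk1 (0.71 ± 0.11), Fkbp5 (0.36 ± 0.06) and Klf9 (0.22 ± 0.05) rose and Mt2 fell (-0.69 ± 0.08). Of 11 hypoxia targets Ldha (0.45 ± 0.09), Slc2a1 (0.48 ± 0.10) and Egln1 (0.25 ± 0.06) rose, and none fell. Ldha and Slc2a1 are also abundant in photoreceptors, whose markers rose in the same libraries. Of 12 p53 targets Sesn1 and Trp53inp1 rose and Phlda3 and Zmat3 fell, and of 10 mTORC1 regulators Sesn1 rose and Deptor and Ddit4l fell.

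**Figure D3:**
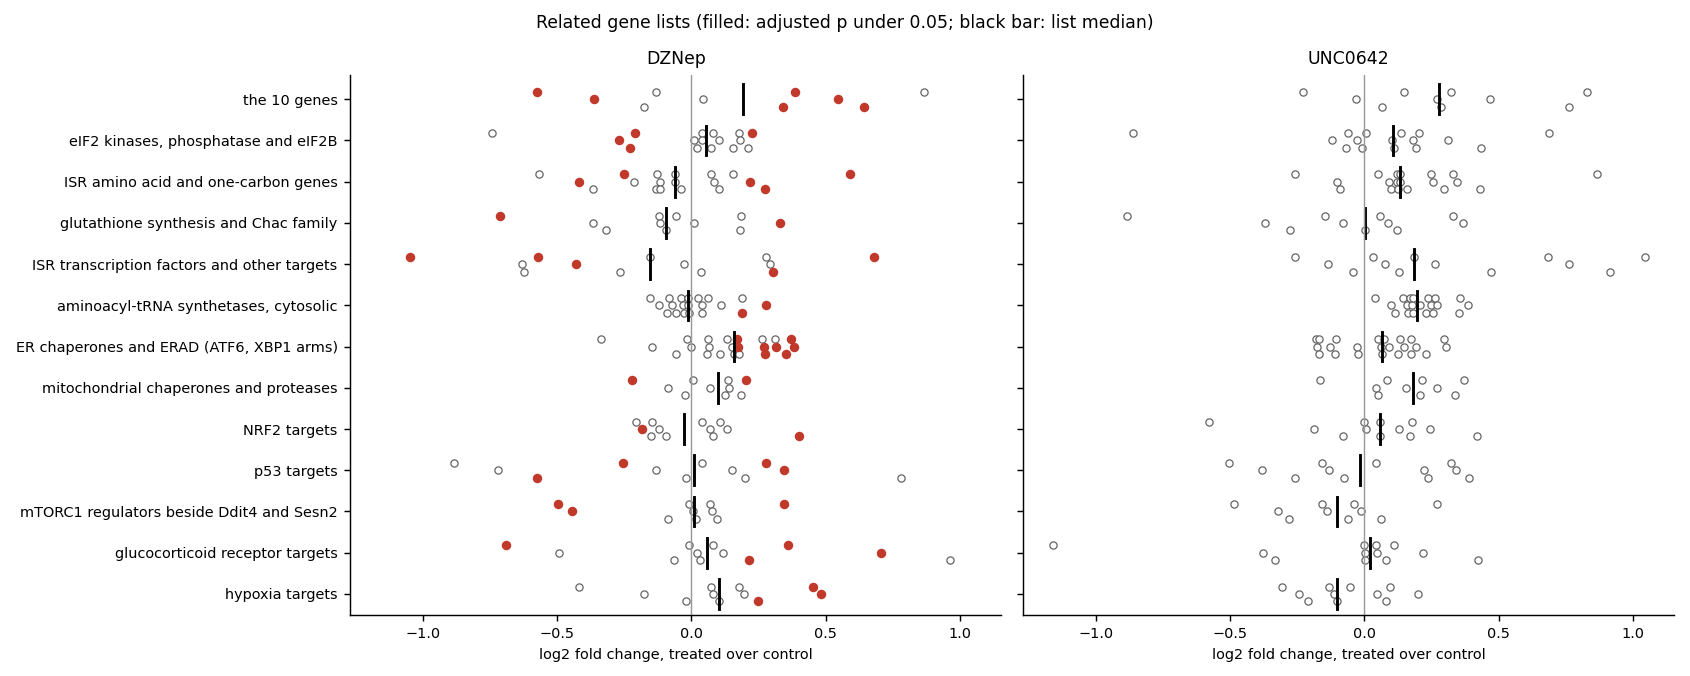
Log2 fold change of every tested gene of the 12 related lists and of the 10 genes described here, in DZNep (left) and UNC0642 (right); filled points have an adjusted p under 0.05 and black bars are medians. In DZNep the list of endoplasmic reticulum chaperones, degradation genes and regulators has filled points only to the right of 0. In UNC0642 all 20 aminoacyl-tRNA synthetase genes lie to the right of 0 with no filled point. The lists were not read without UNC0642 replicate 2.

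In sorted rods, GSK2879552 libraries had lower values than both controls for 7 of the 10 members, beside 17.3% of genes with both treated libraries below both controls, and no member passed. Asns had 24.4 and 39.3 CPM in controls and 18.1 and 17.2 after GSK2879552, a log2 fold change of -0.86 ± 0.31 (unadjusted p = 0.0212, adjusted p = 0.984). Chac1 had 0.935 and 2.69 CPM in controls and 0.364 and 0.403 after GSK2879552, which rest on 7 and 46 counts and on 7 and 4 counts (log2 fold change -2.27 ± 0.92, unadjusted p = 0.0371, adjusted p = 0.987). Control replicate 2 was the higher of the control pair for 8 of the 10 members. Without it the log2 fold change of Asns was -0.47, and without control replicate 1, the shallowest library, -1.16.

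The other members had an unadjusted p above 0.05 in rods. Ddit3 had 39.3 and 44.9 CPM in controls and 35.4 and 29.1 after treatment (-0.38 ± 0.24), Ddit4 29.3 and 41.0 against 27.0 and 24.8 CPM (-0.44 ± 0.27) and Atf5 2.14 and 1.93 against 0.571 and 1.21 CPM (-1.22 ± 0.79). Their intervals all included 0, that of Atf4 being -0.90 to 0.09. Slc7a11, at 4, 0, 7 and 2 counts in the 4 rod libraries, was not tested. With 2 libraries a group, and only 711 genes (4.91%) at an unadjusted p under 0.05, differences of this size were not resolved at this depth. Cone markers were also lower after GSK2879552 (2342 to 2973 against 3664 to 5462 CPM) while Müller glia markers were higher (598 to 635 against 372 to 512 CPM), and their part in the values was not tested.

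Per length, reads per kilobase of exon scaled to library size (RPKM) in the 12 control retinas put Atf4 first (115.8 to 158, median 131), then Ddit4 (median 64.3), Atf5 (23.6), Asns (21.3), Ddit3 (20.2), Psat1 (11.8), Sesn2 (11.7), Chac1 (3.93) and Slc7a11 (1.10), with Trib3, at 1.98 to 3.31, between these last. The ranges of neighbours overlapped for Atf5 and Asns, Asns and Ddit3, Psat1 and Sesn2, Chac1 and Trib3, and Trib3 and Slc7a11, so those pairs are not ordered. Chac1 and Trib3, strongly induced under acute stress, were thus among the least abundant members in these degenerating retinas.

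Control rods ordered the genes differently. Trib3 was at 12.2 and 13.5 RPKM in the 2 control rod libraries, above its whole range in control retinas (1.98 to 3.31), and it was the only member with both rod values above that range. The other 8 members lay below their ranges in control retinas. Atf5 (1.07 and 0.969 RPKM), Psat1 (1.10 and 1.54) and Slc7a11 (0.0475 and 0) were farthest below, the lowest values in control retinas being 19.5, 8.83 and 0.428. Ddit3 overlapped with its retina range, at 22.9 and 26.2 RPKM against 16.8 to 24.8. Rods were dissociated, sorted and prepared with another kit, so cell type, handling and kit cannot be told apart in these values.

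**Figure D4:**
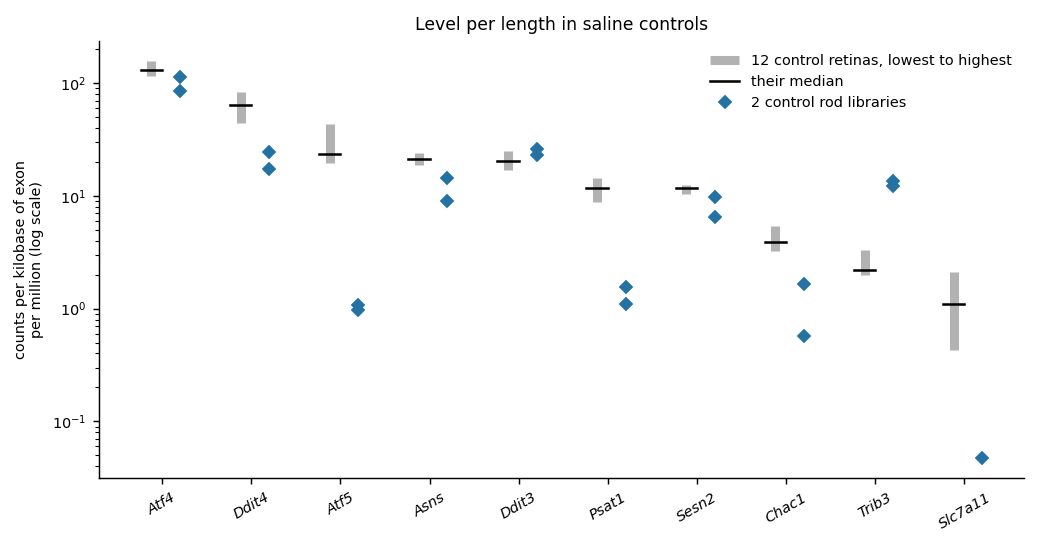
Level per length (RPKM, log axis) of the 10 genes in saline controls, ordered by the median of the 12 control retinas (grey bars run from the lowest to the highest, black lines are medians) with the 2 control rod libraries as diamonds; the second rod value of Slc7a11 was 0 and is not drawn. Both rod values lie above the retina range for Trib3, and Atf5, Psat1 and Slc7a11 lie farthest below it.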

How the data were processed

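mRNA was sequenced from 22 libraries of whole retina and 4 libraries of sorted rods. The authors trimmed reads with BBDuk, aligned them with HISAT2 2.2.1 to NCBIM37 (mm9) and counted them per Ensembl gene with HTSeq 0.11.2, and the values they deposited are raw counts of 37991 genes. Whether the counting used strand is not given in the sources used here. The rods were prepared with a SMART-Seq kit per the study's methods, while the labels name the kit of the retinas.

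Each experiment was tested on its own with edgeR 4.0.16 (R 4.3.3): genes were kept by filterByExpr, scaled by TMM and fitted with glmQLFit, with the treatment as the only term. Two-sided quasi-likelihood p-values were adjusted by Benjamini-Hochberg over all genes tested, and a gene passed at an adjusted p under 0.05, without a fold threshold. Differences between treatments were contrasts of 8 group means in 1 fit of the 22 retina libraries. CPM were scaled to the TMM-adjusted library size within an experiment; for levels across experiments (RPKM) the 22 retina libraries were scaled together. Slc7a11 did not pass the filter in rods. Alternatives were edgeR's likelihood ratio test, DESeq2 1.42.0, RLE scaling, no filter, at least 10 counts in every library, the replicate number as a block, an absolute log2 fold change above 1, all retina libraries in 1 fit, and each library left out.

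The members and the 12 gene lists and 13 marker lists were chosen with earlier results of these data known. All 10 members are named, and of each list up to 3 genes that passed in each direction, by p. No pair of replicates was a copy: 23 pairs were compared, and the lowest chi-square per gene was 3.72. The scripts were tested on simulated data. Promoter windows are those of RefSeq (GRCm38.p6).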

Additional observations from a re-analysis of the deposited data

Results flagged for a closer look

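Several members (Atf4, Atf5, Ddit3, Asns, Trib3 and Ddit4) had treated rods below both controls in the GSK2879552 experiment while treated retinas lay above their controls in another experiment. For Atf4 the log2 fold change in sorted rods was -0.40, against values above 0 in DZNep, UNC1999, UNC0642 and Romidepsin. For Ddit3 it was -0.38, against DZNep, UNC0642 and Romidepsin, for Trib3 -0.13, against DZNep and Romidepsin, and for Ddit4 -0.44, against DZNep and UNC1999. For Atf5 it was -1.22 and for Asns -0.86, both against UNC0642. These differences were not tested, since the inhibitor, the cells, the sort and the library kit all differ between the experiments and cannot be told apart. Only the DZNep controls formed a group of 4 libraries, and there none of the 10 members had a library that stood apart from the rest. This does not cover the groups of 2 or 3 libraries.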

How the results depend on the processing

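Of the DZNep calls, those of Atf4 and Ddit4 kept their direction and their side of the threshold under every alternative run, apart from the fold threshold. With all 22 retina libraries in 1 fit, 2 members passed higher and 1 lower in DZNep, 1 and 3 in UNC1999, 1 higher in UNC0642, and 2 and 3 in Romidepsin. With an absolute log2 fold change above 1 required, 0 passed in either direction in DZNep. The likelihood ratio test gave 1 higher and 3 lower in UNC1999, 1 higher in UNC0642 and 1 and 1 in Romidepsin, and DESeq2 gave 1 and 2, 1 higher, and 1 and 2. With no filter 1 higher and 1 lower passed in UNC1999, 3 higher in UNC0642 and 1 higher in Romidepsin. Treated and control libraries of the same replicate number showed no close relation (correlations of deviations from -0.28 to 0.23). With so few libraries in a group this cannot exclude a pairing. With the replicate block 2 members passed higher (Atf4 and Ddit4) and 0 lower in DZNep, with 5.58% and 3.01% of all genes. In UNC0642 the block gave 3 higher (Atf4, Atf5 and Ddit3), with 1.5% of all genes higher and 2.11% lower. No other count changed with the block. Of the differences between treatments, 1 passed by DESeq2 in DZNep less UNC0642, 2 by the likelihood ratio test and 2 by DESeq2 in UNC0642 less Romidepsin, and 1 by each in UNC1999 less UNC0642.

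When single libraries were omitted, between 3 and 4 members passed higher and between 0 and 2 lower in DZNep, 0 to 1 and 0 to 2 in UNC1999 (the calls appeared without control replicate 3), 0 to 1 for the differences of UNC0642 less Romidepsin and 0 to 3 for UNC1999 less UNC0642. Log2 fold changes that crossed 0 ran from -0.47 to 1.65 for Slc7a11 in DZNep, -0.37 to 0.15 in UNC1999 and -0.62 to 0.27 in UNC0642. In UNC0642 they ran from -0.030 to 0.55 for Psat1, -0.047 to 0.63 for Trib3, -0.16 to 0.41 for Chac1, -0.19 to 0.11 for Sesn2 and -0.11 to 0.23 for Ddit4. They ran from -0.20 to 0.095 for Atf5 in Romidepsin, which was also 0.0072 with at least 10 counts in every library and 0.0010 with all retina libraries in 1 fit, and from -0.21 to 0.38 for Sesn2 in rods. The differences of DZNep less UNC1999 ran from -0.092 to 0.042 for Atf4, -0.065 to 0.10 for Asns and -0.070 to 0.14 for Chac1, and that of Slc7a11 in DZNep less Romidepsin from -0.13 to 2.00. The cause was not tested. Where a group was left with 1 library, that library was assumed to vary like the others. With 2 libraries in several groups, small differences were not detectable.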
